A study of Mus musculus with 4 samples.

Results

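The Coch/Meox2/Wif1 mesenchyme is a group of cells of the E16.5 mouse penis that was chosen by the expression of 8 marker genes, Coch, Meox2, Wif1, Shisal1, Col19a1, Dchs2, Cpxm2 and Shox2. A cell entered the group when at least 3 of the 8 markers were detected with 1 or more UMIs (unique molecular identifiers, each the tag of a captured mRNA molecule). The choice was made among kept cells, those with 1000 to 10000 UMIs, at most 25% of UMIs from mitochondrial genes and at most 25% from Hba and Hbb hemoglobin genes. By this rule, 3559 of the 33704 kept cells were members, and 47040 barcodes were deposited in all. The study sequenced 4 samples of whole penis with the 10x Genomics 3' kit, 2 controls (DTA-) and 2 in which the Nr5a1 lineage had been ablated (DTA+). DTA+ embryos carried an Nr5a1-Cre transgene and an allele of the diphtheria toxin A gene in the Rosa locus that Cre switches on. Controls carried no Cre; their genotype label is WT, while the methods give them the same, then silent, DTA allele. The methods also describe a Rosa tdTomato reporter allele in the cross. The driver is not limited to the penis, since Nr5a1 is expressed in the adrenals and the gonads, and hormone levels were not among the data analysed here. Effects of the cells lost from the penis, of changes in those organs and of the transgenes cannot be told apart in these samples.

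The mesenchyme of the genital tubercle is a mixture of fibroblast-like cells that differ by place, and that exchange Wnt, BMP, FGF and hedgehog signals with the urethral and preputial epithelium. WIF1 is a secreted protein that binds Wnt ligands and keeps them from their receptors. MEOX2 and SHOX2 are homeodomain transcription factors known from limb and muscle development, cochlin (Coch) is an extracellular matrix protein, Col19a1 encodes a minor collagen, and Dchs2 encodes a large cadherin of the Dachsous type. In GRCm38, Coch and Meox2 lie on chromosome 12 (51593341 to 51605771 and 37108540 to 37179534, plus strand) and Wif1 on chromosome 10 (121033960 to 121100650, plus strand). Fkbp5, Mt1 and Mt2, described further on, are textbook targets of the glucocorticoid receptor. Mt1 and Mt2 also respond to metals.

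The first control held 952 members among 7600 kept cells and the second 1108 among 8433. The first DTA+ sample held 815 among 8304 and the second 684 among 9367. Members had more UMIs per cell in the controls, with medians of 5868 and 4854, than in DTA+ samples, with 3733 and 3962. Their UMIs summed to 5748549 and 5740291 in the controls and to 3432213 and 3064941 in DTA+. The male-specific gene Ddx3y had 4235 to 4760 UMIs per library and Xist 5 to 9. Pairs of libraries shared 31 to 48 barcodes, and a single member barcode occurred in more than one library. The mesenchymal label was checked: at least 3 of 8 general mesenchyme genes (Col1a1, Col1a2, Col3a1, Pdgfra, Twist1, Prrx1, Dcn, Twist2) were detected in 99.9% to 100% of the members of every sample. Of kept cells with at least 3 markers of endothelium, macrophages, Schwann and glial cells or epithelium, 20.4% to 24.6% met the same criterion, and the 8 genes summed to 1451.0 to 3217.8 CPM in those cells and to 8350.6 to 10687 CPM in members. Between 13 and 39 members per sample also had at least 3 markers of a non-mesenchymal class.

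The 8 markers did not contribute equally to the choice. Shox2 was detected in 97.7% and 96.6% of control members and in 94.2% and 95.03% of DTA+ members. It was also detected in 34.9% to 41.1% of the kept cells outside the group, so it was the least selective of the 8. Wif1 was detected in 81.7%, 78.9%, 86.4% and 84.9% of members, in the order of the controls and then the DTA+ samples, against 12.8% to 15.7% of other kept cells. Meox2 was found in 73.5% and 76.2% of control members and in 64.0% and 61.1% of DTA+ members, against 3.39% to 7.47% elsewhere. Coch was found in 31.5% and 34.7% of control members and in 60% and 48.4% of DTA+ members, against 1.34% to 2.19% elsewhere. Col19a1, the sparsest marker, was found in 8.03% to 21.0% of members. The most frequent combination was Meox2, Wif1 and Shox2 without the other 5, in 477 members (13.4%), and 17 members had all 8. These values chose the members and are given as a description.

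Free RNA and doublets can bring markers into cells that do not express them, and their part was not tested. Kept cells with at least 3 markers of endothelium, macrophages, Schwann and glial cells or epithelium served as a comparison set. Whether these cells express rule markers of their own was not tested. Of these cells, 1.06% to 1.80% passed the rule in the 4 samples. Their median depth was 4603 to 5464 UMIs, at or above that of all kept cells, which was 3673 to 5065. Shox2 was detected in 6.61% to 9.58% of these cells and Coch in 1.41% to 3.29%. Outside the group, Coch was less frequent than in these cells of the same sample, except in the first DTA+ sample (2.19% against 1.54%). Meox2 was detected in 7.49% to 8.73% of those cells, above its share in other kept cells of each sample, whereas Shox2 was more frequent outside the group in every sample. Just inside the threshold, 1610 members had exactly 3 markers, and just outside it 4104 kept cells had 2.

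Genes outside the rule also differed between members and the pooled other kept cells. The leading gene was Bmp3, a member of the BMP family that is known mainly as an inhibitor of BMP signalling, at 109.4 and 163.2 CPM (the gene's UMIs scaled to libraries of equal size) in the control members and 210.4 and 185.0 CPM in the DTA+ members. In other mesenchyme it stood at 21.0, 27.1, 43.0 and 40.1 CPM. Other mesenchyme here means the 26403 kept cells outside the group that had at least 3 general mesenchyme genes and fewer than 3 markers of each non-mesenchymal class, red cells not counted among these classes. On the log2 scale, after adding 10 CPM, Bmp3 was 2.05 above other mesenchyme. Sim1, a bHLH-PAS transcription factor, had 278.9 CPM on average in members and 75.2 CPM in other mesenchyme, and Pde4d, a cAMP phosphodiesterase, 329.4 against 90.4 CPM. Both were higher in the members of all 4 samples.

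Further leading genes included ion channels, signals and matrix genes. The potassium channel genes Kcnj15, Kcnj2 and Kcna4 had 23.7, 26.6 and 37.4 CPM in members and 2.38, 3.06 and 11.6 CPM in other mesenchyme. Fgf9, an FGF ligand, had 72.1 against 24.3 CPM, and Slit2, a ligand of Robo receptors, 210.4 against 89.8 CPM. Tac1, which encodes the precursor of substance P, had 246.9 against 106.5 CPM. The agouti gene (symbol a), which encodes an antagonist of the melanocortin receptor, had 375.1 against 150.9 CPM. Sostdc1, a secreted antagonist of BMP and Wnt signals, had 671.9 against 310.3 CPM. Frem1, a matrix protein of the epithelial basement membrane zone, had 107.4 against 38.9 CPM. The remaining genes among the leading 25 were Foxd2os, Car12, Zfp185, Rerg, Ptpro, Rgs17, Slco5a1, C1qtnf2, Plcb4, Col13a1, Zbtb20, Cdca7 and Hs3st6. Some of the 25 were not particular to the group. In the joint clustering described below, Tac1, Col13a1 and Fgf9 were leading genes of cluster 5, where 6.41% of cells were members. Sostdc1 led cluster 13, where 21.0% were members.

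Levels of these genes differed by the number of rule markers in a cell. Bmp3 stood at 20.8 CPM in cells with no marker, 57.0 CPM in cells with 2, 124.8 CPM in cells with 3 and 233.1 CPM in cells with 7. Kcnj15 went from 2.47 CPM at 2 markers to 8.45 CPM at 3 and 40.5 CPM at 5, and Kcnj2 from 4.03 to 10.3 and 39.0 CPM. Median depth of the pooled cells changed little over this range, from 4713 UMIs at 2 markers to 4826.5 at 5. By genotype it rose from 5067 to 5652 UMIs in DTA- cells and fell from 4309 to 3856 in DTA+ cells. The part of depth in these levels was not tested. Cells with exactly 3 markers lay between those with 2 and those with 4 for all 3 genes. The rise did not go on throughout: Kcnj15 had 28.3 CPM at 6 markers and Bmp3 175.6 CPM at 8. These levels pool the genotypes. At 5 markers Kcnj15 had 22.9 CPM in DTA- cells and 72.1 CPM in DTA+ cells.

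**Figure D1:**
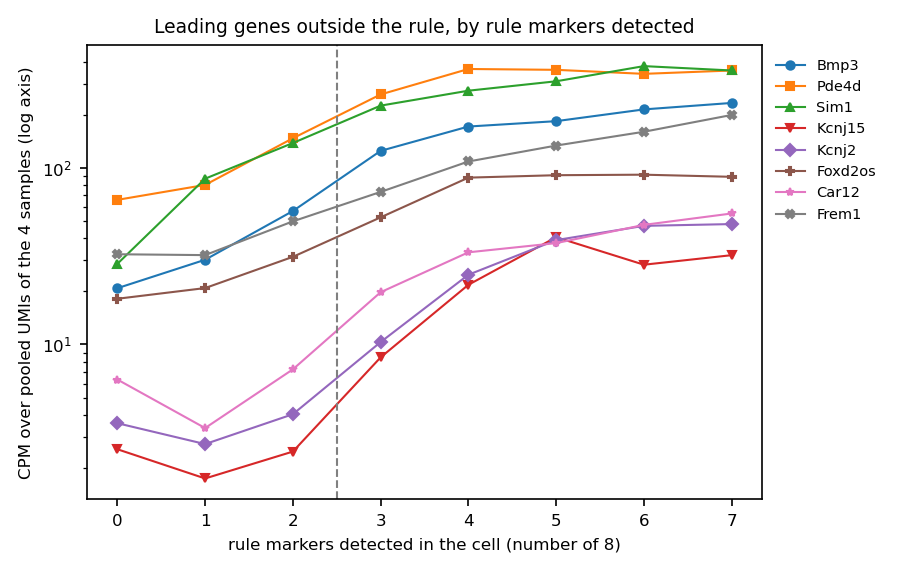
CPM (vertical axis, log scale) of the 8 leading genes outside the rule, over the pooled UMIs of the kept cells of all 4 samples, by the number of rule markers detected in the cell (horizontal axis); the dashed line marks the rule's threshold of 3. Bmp3 goes from 20.8 CPM without a marker to 233.1 CPM at 7 markers, and Kcnj15 and Kcnj2 stay under 5 CPM up to 2 markers.

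Other genes were lower in members than in other mesenchyme. Akap12 had 46.8 CPM in members and 252.1 CPM in other mesenchyme, a log2 ratio of -2.21. Dlk1, a non-canonical Notch ligand of immature mesenchyme, had 116.8 against 537.3 CPM, and the IGF-binding protein gene Igfbp5 106.3 against 437.3 CPM. The R-spondin gene Rspo3, which amplifies Wnt signalling, had 16.1 against 85.6 CPM. The proteoglycan gene Lum had 117.0 against 431.4 CPM, the chemokine gene Cxcl12 34.2 against 141.4 CPM, and Ebf1, a transcription factor gene, 51.1 against 196.5 CPM. All of these were lower in the members of each of the 4 samples.

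The likely site was examined with marker lists for the named regions of the penis, and no list was raised as a whole. Of 6 periurethral markers (Foxl2, Foxf1, Foxf2, Sall3, Sall1, Srd5a2), none was more than 0.5 above other mesenchyme on the log2 scale and 1, Foxf1, was more than 0.5 below, with 0.866 against 9.01 CPM. Of 6 hedgehog-responsive markers 4 were lower, among them Ptch1 with 38.7 against 84.9 CPM and Hhip with 4.65 against 22.9 CPM; both are induced by hedgehog signals. Of 10 chondrogenic markers of the corpus cavernosum 7 were lower, led by Sox9 with 23.5 against 105.1 CPM. Among 8 distal glans markers, Tac1 was higher and 5 were lower, among them Dlx5 with 6.35 against 41.9 CPM and Msx1 with 83.8 against 158.7 CPM.

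The preputial lists were mixed. Of 8 markers of general prepuce and dermis, Col14a1 was higher, at 552.1 against 382.2 CPM, while Akap12, Lum and Dpt were lower. Crabp1, with 337.9 against 253.4 CPM, and the Wnt target Axin2, with 106.7 against 76.8 CPM, lay less than 0.5 above. Of 8 markers of subdermal prepuce and fascia 5 were lower and none higher. For tendon-type, joint and osteogenic lists none of 7 markers each was higher. Scx, a tendon transcription factor, came nearest with 21.8 against 12.9 CPM. Tnmd, Gdf5, Bglap and Nr5a1 had no UMI in any member. By these lists, hedgehog, chondrogenic and fascial markers were mostly lower in members, and a single marker each of the distal glans (Tac1) and of the dermis (Col14a1) was higher while more markers of both lists were lower. Position was not measured, so no anatomical name is given.

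**Figure D2:**
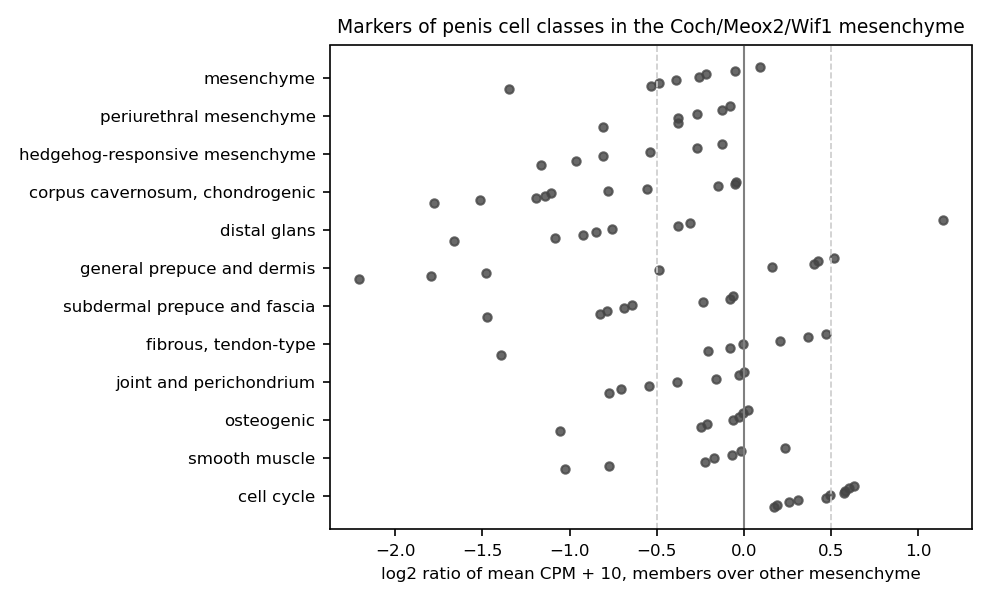
Each point is a marker gene of the class named on the vertical axis; the horizontal axis gives the log2 ratio of mean CPM plus 10 in members over other mesenchyme, and the dashed lines mark 0.5 in each direction. Among the lists for regions of the penis, 2 points lie beyond 0.5 to the right, Tac1 at 1.14 and Col14a1 at 0.52.

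Some genes of positional identity stood at similar levels in members and in other mesenchyme, and others differed. The posterior Hox genes Hoxa13 and Hoxd13, which pattern the distal limb and the genital tubercle, stood at 66.7 and 69.3 CPM in members and at 69.1 and 94.9 CPM in other mesenchyme. Hoxa11 was higher, with 39.1 against 24.7 CPM, as was Hoxa10, with 144.2 against 120.3 CPM. Among T-box genes, Tbx4, a regulator of hindlimb and genital outgrowth, had 162.4 against 103.4 CPM and Tbx5 121.0 against 88.6 CPM; both were higher in all 4 samples. Isl1, which marks the early genital mesenchyme, differed little, with 423.5 against 377.0 CPM. Hand2, a transcription factor gene of ventral mesenchyme, was nearly absent, with 8.14 against 38.1 CPM.

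Joint clustering of all kept cells gave 27 clusters and members occurred in all but clusters 23 and 27. Cluster 7 held 1533 members (43.1%), and 84.0% of its 1824 cells were members. Its leading genes were Coch, Meox2, Wif1, Shisal1, Col19a1, Dchs2, Cpxm2, Kcnj15, Bmp3 and Shox2. Cluster 13, led by Sostdc1, Gria2 and Wnt16, held 20.4% of the members, and cluster 9, led by the cycling genes Top2a and Ube2c, held 11.0%. The composition differed between the genotypes. Cluster 7 took 35.3% and 36.6% of control members and 58.2% and 46.5% of DTA+ members. Cluster 9 took 13.7% and 15.9% of control members and 6.13% and 5.26% of DTA+ members. Every comparison of the genotypes among members therefore compares somewhat different mixtures, and where a difference between the genotypes named below was called in all members but not within cluster 7, this is said in its paragraph. Genes too low to be tested there, such as Fndc1, have no such value. The rule markers were not compared between the genotypes within cluster 7. For Coch, Col19a1, Wif1 and Meox2 it is therefore not known whether the differences given below hold there. Cluster 7 was in part defined by genes that differ between the genotypes.

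Members made up 12.5% (95% Clopper-Pearson interval 11.8 to 13.3%) and 13.1% (12.4 to 13.9%) of the kept cells in the controls. In DTA+ they made up 9.81% (9.18 to 10.5%) and 7.30% (6.78 to 7.85%). The intervals cover counting error only. The means were 12.8% ± 0.433 and 8.56% ± 1.78 (SD, n = 2 each), a difference of -4.27 percentage points without overlap of the groups; the exact two-sided permutation test gave p = 0.33333, the smallest that 2 against 2 samples allow. Detection of a marker depends on the UMIs per cell, which were higher in the controls. When every kept cell was thinned to 1000 UMIs before applying the rule, the shares were 2.22% and 2.53% in controls and 3.53% and 1.60% in DTA+, and the groups overlapped. Thinning to 2000 UMIs, which kept 7261 and 7950 cells of the controls and 7561 and 8829 of DTA+ and left out the shallower ones, gave 5.41% and 7.07% against 6.78% and 3.998%. Cells of cluster 7 were 5.16% and 5.86% of the kept cells in controls and 6.79% and 3.99% in DTA+. The groups thus overlapped in each of these settings, of which the share of cluster 7 did not equalise the UMIs per cell. The thinned shares also rest on markers that differed between the genotypes, such as Coch and Col19a1, described below. With 2 against 2 samples, the permutation test cannot detect a difference in any setting. The overlap therefore does not show that the shares were equal, and the part of UMIs per cell was not tested.

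**Figure D3:**
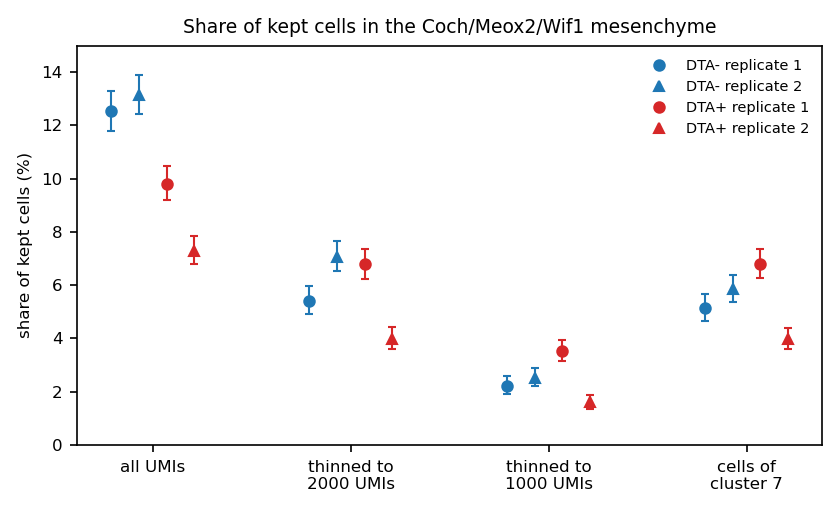
Share of kept cells (vertical axis, percent) that met the rule with all UMIs, after thinning to 2000 or 1000 UMIs, and share of cells in cluster 7, per sample with 95% Clopper-Pearson intervals. The groups are apart with all UMIs, at 12.5 and 13.1% against 9.81 and 7.30%, and overlap in the other 3 settings.

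To compare the markers themselves between the genotypes, each was read in cells chosen by at least 3 of the other 7, and fitted together with all genes of those cells. Col19a1 was higher in DTA+, at 50.3 and 38.9 CPM against 14.7 and 15.04 CPM in the controls, a log2 fold change of 1.56 ± 0.202 (SE) with an adjusted p of 0.000284 by edgeR's quasi-likelihood test. Coch was higher as well, at 324.4 and 202.0 CPM against 91.6 and 110.3 CPM, with a log2 fold change of 1.36 ± 0.191 and an adjusted p of 0.000838. The groups did not overlap for either gene, and both passed in all 14 alternatives, which did not include a fit within cluster 7. In these fits 7.95% and 7.22% of all genes were called.

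Wif1 rose by less, 0.53 ± 0.147 on the log2 scale (adjusted p = 0.0228, edgeR), with 755.2 and 538.1 CPM in DTA+ and 430.9 and 460.1 CPM in controls, and 10.1% of genes were called in its fit. Meox2 went the other way, a fall of 0.41 ± 0.129 (adjusted p = 0.0347, edgeR), from 367.3 and 352.5 to 302.9 and 247.1 CPM, where 12.5% of genes were called. The call of Meox2 was made in 5 of the 14 alternatives and that of Wif1 in 12. Without the first DTA+ sample Wif1 had 0.24 and did not pass (adjusted p = 0.656, edgeR), and without the second DTA+ sample Meox2 had -0.26 (adjusted p = 0.477, edgeR). Shisal1 (-0.59, adjusted p = 0.0820), Cpxm2 (0.41, 0.145), Dchs2 (0.36, 0.402) and Shox2 (-0.03, 0.933) did not pass. Their log2 values have standard errors of 0.208, 0.169, 0.244 and 0.134. Background in these 4 fits was 8.91%, 8.49%, 7.87% and 10.4%.

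**Figure D4:**
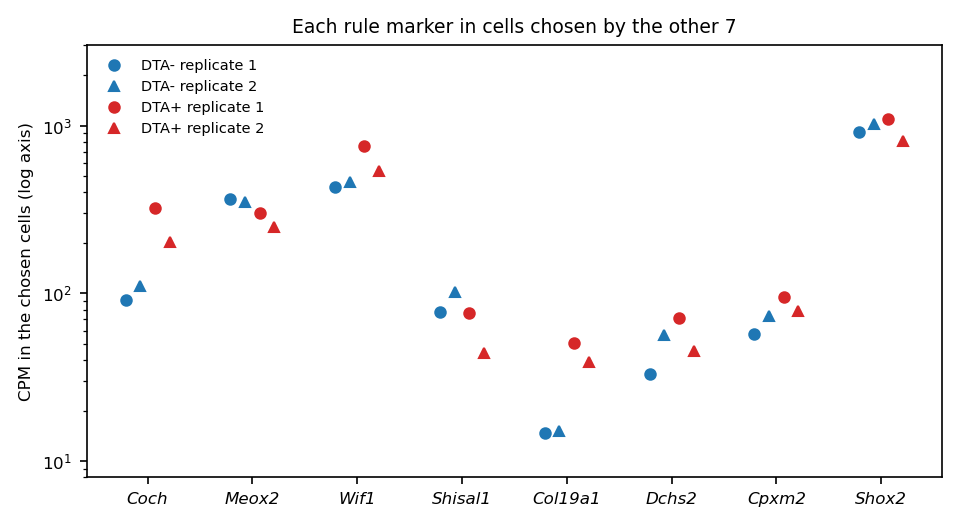
CPM (vertical axis, log scale) of each rule marker in kept cells chosen by at least 3 of the other 7 markers, per sample. Both DTA+ samples lie above both controls for Coch, Wif1, Col19a1 and Cpxm2 and below them for Meox2 and Shisal1.

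Across the transcriptome, UMIs of the members were summed per sample, scaled with TMM and tested with edgeR, leaving out the 8 rule markers. Of 11976 genes tested, 984 (8.22%) were called at an adjusted p under 0.05, 422 higher (3.52%) and 562 lower (4.69%) in DTA+. Single samples moved this count: it was 2056 without the second control, 436 without the first DTA+ sample and 527 without the second. The median log2 fold change of all genes was 0.01. Groups without overlap were common, at 53.5% of all genes, so that absence of overlap carries little weight by itself. Within cluster 7, 781 of 9750 genes (8.01%) were called. Of the 984 called genes, 816 were tested there, 808 had the same direction and 517 were called again. CPM values in what follows are TMM-scaled, apart from the summed levels of marker lists.

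Both Rosa-linked features marked the genotype. The reporter tdTomato had no UMI in control members and 239 and 197 UMIs in DTA+ members, or 69.6 and 64.3 CPM before TMM scaling, which is at least 256-fold higher than a floor of 3 UMIs over the control group allows. In other mesenchyme tdTomato was called higher as well (adjusted p = 0.000917, edgeR). The methods of the study describe its transcript as leaky, with a low background in most cells. Its detection therefore does not by itself mark members as cells of the Nr5a1 lineage. Gt(ROSA)26Sor, the noncoding gene of the Rosa locus (chromosome 6, 113067428 to 113077333, minus strand, GRCm38), stood at 14.3 and 14.1 CPM in controls and 78.0 and 79.7 CPM in DTA+, a log2 fold change of 2.47 ± 0.181. It changed alike in other mesenchyme (2.24).

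The other genes with the largest rises included 4 that encode proteins of the cell surface. Ephb1, an Eph receptor, rose from 30.2 and 26.2 to 89.7 and 95.4 CPM, a log2 fold change of 1.71 ± 0.167 (adjusted p = 1.5e-05, edgeR). Unc5c, a netrin receptor, rose by 1.54 ± 0.263, from 16.3 and 8.73 to 28.9 and 44.2 CPM. In members chosen after thinning to 2000 UMIs, Unc5c did not pass (1.20, adjusted p = 0.0641, edgeR). Kcnj15, a leading gene of the group, rose by 1.67 ± 0.320. Its DTA+ samples differed widely, at 52.9 and 19.2 CPM against 11.97 and 10.8 CPM in controls. The call was lost without the first DTA+ sample, where the log2 fold change was 0.75. With at least 2 markers Kcnj15 did not pass either (1.36, adjusted p = 0.0661, edgeR). Emb, which encodes the surface protein embigin, rose from 18.2 and 11.3 to 32.7 and 46.7 CPM, and did not pass within cluster 7 (1.03, adjusted p = 0.0626, edgeR).

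Nuclear and secreted products made up the rest of the list. Nr4a2, an orphan nuclear receptor and immediate early gene, had 15.4 and 46.3 CPM in controls and 120.1 and 69.5 CPM in DTA+ (1.62 ± 0.324). Crebrf, a regulator of stress transcription factors, went from 20.01 and 25.5 to 57.9 and 62.4 CPM (1.40 ± 0.185). Selenop, which encodes a selenium carrier protein, rose from 25.9 and 28.3 to 76.0 and 64.0 CPM (1.37 ± 0.176), and by 2.38 within cluster 7. The proteoglycan gene Spock3 rose by 1.34 ± 0.211, Cxxc4, an inhibitor of Wnt signalling, by 1.34 ± 0.222, and the long noncoding RNA Neat1 by 1.37 ± 0.340. Among these, DESeq2 did not call Kcnj15, Nr4a2 or Neat1, with adjusted p-values of 0.176, 0.292 and 0.422. Neat1 had 5.18 and 17.3 CPM in controls and 33.3 and 24.96 CPM in DTA+, and its log2 fold change was 0.76 without the first control and 2.48 without the second. It was also not called with the limit of 7500 UMIs, with at least 2 markers, after thinning or without cycling cells, where its values were 1.51, 0.58, 1.28 and 1.25 (adjusted p = 0.0574, 0.259, 0.114 and 0.0873, edgeR). Nr4a2 rose by 1.04 without the first control, 2.62 without the second and 1.17 without the first DTA+ sample. Cxxc4 did not pass after thinning to 1000 UMIs (1.13, adjusted p = 0.0642, edgeR).

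Fkbp5, a co-chaperone of steroid receptors (chromosome 17, 28399094 to 28517527, minus strand), had the smallest adjusted p among the falls named here. It had 72.5 and 68.3 CPM in control members and 13.4 and 16.3 CPM in DTA+ members, a log2 fold change of -2.24 ± 0.195 (adjusted p = 4.4e-06, edgeR). It fell by 2.01 within cluster 7 and by 2.66 in other mesenchyme, and the difference between members and other mesenchyme was not significant (0.38, adjusted p = 0.441, edgeR). The metallothionein gene Mt1 fell from 28.2 and 81.7 to 13.7 and 3.52 CPM, a log2 fold change of -2.64 ± 0.448. The controls differed by more than 2-fold from each other, and DESeq2 did not call it (adjusted p = 0.152). Leaving out single samples gave Mt1 values from -3.96 to -1.69. Mt2 had 34 and 148 UMIs in control members and 3 and 2 in DTA+ members, a ratio of 0.0486 with an exact 95% counting interval of 0.0156 to 0.115.

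Mt1 and Mt2 lie next to each other on chromosome 8 and fell together, so the 250 bases before the RefSeq start of each are shown. They are taken from RefSeq (GRCm38.p6), chr8:94178839-94179088 for Mt1 and chr8:94172368-94172617 for Mt2, plus strand, and capitals mark matches on either strand to the metal response core written as TGCACNC or TGCGCNC.
Mt1: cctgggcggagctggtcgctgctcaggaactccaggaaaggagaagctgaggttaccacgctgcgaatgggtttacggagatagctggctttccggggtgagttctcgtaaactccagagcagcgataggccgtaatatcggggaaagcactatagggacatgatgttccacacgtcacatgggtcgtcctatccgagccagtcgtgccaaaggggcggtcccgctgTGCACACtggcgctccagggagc
Mt2: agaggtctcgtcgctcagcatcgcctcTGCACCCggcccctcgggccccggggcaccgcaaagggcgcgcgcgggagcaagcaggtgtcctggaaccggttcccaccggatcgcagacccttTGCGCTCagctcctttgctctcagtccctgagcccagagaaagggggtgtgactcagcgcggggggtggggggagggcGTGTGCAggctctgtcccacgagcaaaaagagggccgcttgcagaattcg
Within these 250 bases, Mt1 held 1 match and Mt2 held 3. Bases outside the windows, also those just after the RefSeq start, were not searched. The numbers are therefore not counts for the whole promoter of either gene. Among the same windows of 32851 RefSeq promoters, 21.4% held at least 1 match and 1.26% at least 3. The full palindrome of the glucocorticoid response element was found in neither window and in 0.00913% of all. A match describes letters, not binding.

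The other large falls were of several kinds. The matrix gene Fndc1 fell from 28.6 and 67.4 to 12.3 and 9.28 CPM (-2.15 ± 0.330), and by 1.41 without the second control. Rnf128, a ubiquitin ligase gene, fell from 43.1 and 48.9 to 14.0 and 13.1 CPM (-1.76 ± 0.202), and by 2.13 within cluster 7. Ankrd29, a gene of ankyrin repeats, fell from 69.9 and 82.9 to 23.4 and 22.4 CPM (-1.74 ± 0.182). Ccne1, which encodes the G1/S cyclin E1, and Cenpm, which encodes a centromere protein, fell by 1.59 ± 0.238 and 1.55 ± 0.196. Without cycling cells Cenpm did not pass (-0.84, adjusted p = 0.369, edgeR). After thinning to the lower UMI limit of kept cells Ccne1 did not pass (-0.99, adjusted p = 0.224, edgeR). Each gene kept its call in the other of these settings. Idi1, an enzyme of isoprenoid and sterol synthesis, fell by 1.503 ± 0.243.

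Hemoglobin genes took 4 of the 12 places among the falls. Hbb-bs had 2864.0 and 3171.5 CPM in control members and 1023.4 and 393.7 CPM in DTA+ members (-2.09 ± 0.259), and Hbb-bt, Hba-a1 and Hba-a2 fell by 2.35, 1.77 and 1.75. DESeq2 did not call Hba-a1 or Hba-a2 (adjusted p = 0.236 and 0.103). Without the first DTA+ sample the values of Hbb-bs, Hbb-bt, Hba-a1 and Hba-a2 were -2.94, -3.16, -2.99 and -2.63, and without the second -1.56, -1.85, -1.12 and -1.21. Within cluster 7 the same 4 genes had log2 fold changes of -0.36, -0.51, -0.26 and -0.09, and none was called. Cluster 2, which red cell genes lead, held 31 and 34 control members and 7 and 2 DTA+ members.

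**Figure D5:**
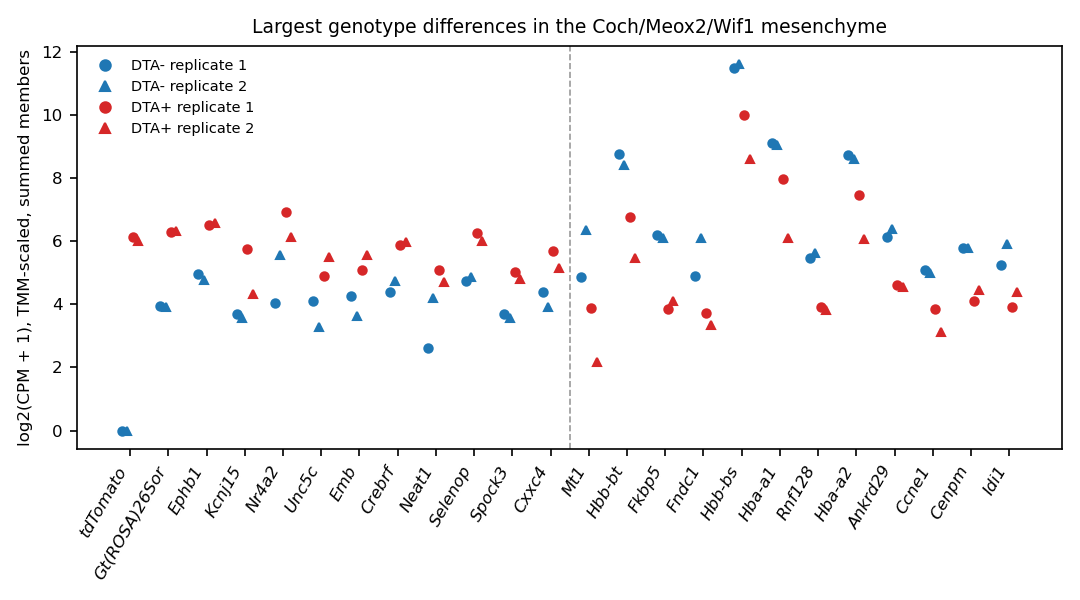
log2(CPM + 1) (vertical axis, TMM-scaled) of the 12 genes with the largest rise (left of the dashed line) and the 12 with the largest fall among called genes of at least 20 CPM without overlap, per sample, in summed members. tdTomato is at 0 in both controls, and for Fkbp5 the controls stand at 72.5 and 68.3 CPM against 13.4 and 16.3 CPM.

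Cell cycle genes fell together. Of the 10 genes of the list, 9 fell and none rose, with a median log2 fold change of -0.97, where 4.69% of all genes were called lower. Birc5, a mitotic inhibitor of apoptosis, fell from 163.8 and 189.1 to 62.0 and 78.7 CPM (-1.33 ± 0.157). Top2a, the DNA topoisomerase of dividing cells, had 288.5 and 443.4 CPM in controls and 212.2 and 181.2 CPM in DTA+ (-0.90 ± 0.172), and Tyms, which makes thymidylate, fell by 1.03 ± 0.157. Within cluster 7, 8 of 9 tested genes were called lower. The share of members with at least 3 of the 10 genes detected was 29.6% and 30.6% in controls and 11.8% and 12.6% in DTA+. After thinning to 1000 UMIs it was 10.6% and 13.6% against 4.42% and 4.97%, still without overlap. In other mesenchyme the thinned shares were 5.75% and 6.45% against 4.65% and 3.36%. Control members thus had the highest share of cells with cell cycle genes of these 4 sets, and DTA+ members were close to other mesenchyme.

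Genes of steroid response and synthesis moved in both directions. Of 13 tested glucocorticoid-induced genes, Fkbp5, Mt1 and Mt2 fell, while Dusp1, a phosphatase that is also an immediate early gene, rose by 0.72 ± 0.176, where 4.69% of all genes were called lower and 3.52% higher. The other 9 did not pass, among them Tsc22d3, with 69.1 and 60.8 CPM in controls and 47.1 and 48.3 CPM in DTA+. The median of the list was -0.23, and 0.16 within cluster 7. Srd5a2, which encodes the enzyme that makes dihydrotestosterone, fell by 1.47 ± 0.253, from 28.4 and 47.8 to 15.2 and 12.2 CPM. Srd5a1 and the growth factor gene Igf1 fell by 1.27 and 0.73. None of these 3 passed within cluster 7, where Srd5a2, Srd5a1 and Igf1 had -0.80, -1.04 and -0.47 (adjusted p = 0.247, 0.199 and 0.358, edgeR). The estrogen receptor gene Esr1 was low throughout, with 9 and 3 UMIs in control members and 32 and 31 in DTA+ members, a ratio of 9.28 with a counting interval of 4.96 to 18.9.

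In the Wnt lists, calls in all members fell on ligands, receptors and inhibitors. Wnt5a, a ligand of non-canonical signalling, rose by 0.46 ± 0.124, from 632.3 and 649.3 to 812.0 and 954.7 CPM, as the only called gene of 10. Of 11 receptor genes 3 rose, where 3.52% of all genes were called higher, Fzd3, Fzd10 and Lrp6, by 0.73, 0.60 and 0.54. Of 9 secreted inhibitors besides Wif1, Frzb, Sfrp1, Dkk3 and Dkk2 rose by 0.95, 0.79, 0.63 and 0.62. Sostdc1 fell by 0.73 ± 0.184, from 956.0 and 731.0 to 379.1 and 636.9 CPM, but had -0.06 within cluster 7 and did not pass there (adjusted p = 0.894, edgeR). Of 7 inhibitors tested within cluster 7, Dkk3 alone was called higher and the median was 0.05, against 0.62 in all members. Fzd3 also did not pass there (adjusted p = 0.128, edgeR). None of 12 Wnt target genes was called in either direction in all members, and their median was 0.33. Within cluster 7, 1 of 10 was called higher, Apcdd1 (0.62, adjusted p = 0.0307, edgeR).

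The BMP and TGF-beta list held 7 called rises and 1 fall among 25 genes, with a median of 0.30. Of all genes, 3.52% were called higher and 4.69% lower. The BMP target genes Id1 and Id3, inhibitors of bHLH factors, rose from 518.4 and 456.5 to 907.3 and 1063.2 CPM and from 423.2 and 320.2 to 595.7 and 695.8 CPM. Their log2 fold changes were 1.02 ± 0.128 and 0.80 ± 0.145. The antagonist gene Nog rose by 1.14 ± 0.260, the activin subunit gene Inhba by 1.07 ± 0.183, and Tgfb2, Tgfb3 and the inhibitory Smad7 by 0.73, 0.75 and 0.58. Tgfb3 did not pass within cluster 7 (adjusted p = 0.0608, edgeR). Gdf10 (BMP3B), the nearest relative of Bmp3, fell by 1.15 ± 0.184, from 77.2 and 100.9 to 34.8 and 45.8 CPM. Bmp3 itself had a value of 0.51 and did not pass (adjusted p = 0.0655, edgeR).

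The IGF axis had 4 rises and 2 falls among 13 genes, where 8.22% of all genes were called. Igfbp3 rose from 424.3 and 518.0 to 1304.6 and 989.9 CPM, a log2 fold change of 1.28 ± 0.144, and Igfbp7 rose by 0.91 ± 0.144. Igf1r, the receptor, rose by 0.83 ± 0.133, and Pappa, a protease that cleaves IGF-binding proteins, by 0.99 ± 0.178. Igfbp2 fell by 1.17 ± 0.144, from 419.5 and 399.3 to 158.4 and 204.5 CPM, but did not pass within cluster 7 (-0.44, adjusted p = 0.340, edgeR). Igf2 and H19, the imprinted pair, had values of 0.00 and -0.08. Among 14 FGF genes Fgf10 and Fgf9 rose by 0.88 and 0.72. Of 9 Notch genes Jag1 rose (0.96), and of 4 tested EGF family genes Egfr rose (0.84). Fgf9, Jag1 and Egfr did not pass within cluster 7 (adjusted p = 0.0571, 0.0686 and 0.0802, edgeR).

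Axon guidance genes rose in 8 of 24 tested cases and fell in none, with a median of 0.41; 3.52% of all genes were called higher. Slit2, a leading gene of the group, rose from 138.8 and 136.2 to 295.5 and 270.8 CPM (1.04 ± 0.134). Nrp2, a semaphorin co-receptor, rose by 1.05 ± 0.156, Sema3a by 1.02 ± 0.179 and the netrin receptor gene Dcc by 1.61 ± 0.317. Epha4, Epha7 and Efna5 rose by 0.53, 0.64 and 0.84. Within cluster 7, 6 of 23 were called higher, and Sema3a, Epha7 and Efna5 did not pass (adjusted p = 0.210, 0.0571 and 0.204, edgeR). Of 17 cadherin and protocadherin genes, Pcdh19, Pcdh17, Pcdh7 and Pcdh18 rose by 1.80, 1.30, 0.90 and 0.55, and Fjx1 fell by 0.53.

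Patterning factors rose in 7 of 28 cases, beside 3.52% of all genes, led by Foxp2 (1.83), Six2 (1.28) and Alx1 (0.85), while none of 13 posterior Hox genes and none of 12 hedgehog pathway genes was called. Within cluster 7, 1 of 10 hedgehog pathway genes was called higher, Gas1 (0.79, adjusted p = 0.00318, edgeR). Isl1 rose by 0.49, from 396.6 and 307.6 to 464.5 and 527.5 CPM, and Prrx1 by 0.55. Of 26 collagen genes, Col15a1 and Col8a2 rose by 1.37 and 0.62, and Col6a6, Col3a1 and Col6a2 fell by 1.45, 0.51 and 0.50. Within cluster 7 the balance was different: 6 collagen genes of 23 were called higher and none lower, Col3a1 and Col6a2 did not pass (adjusted p = 0.312 and 0.136, edgeR), and Col6a6 was not tested. Col8a2 did not pass there either (0.101). Col1a1 and Col1a2 had values of -0.16 and -0.02. Of 27 proteoglycan and glycoprotein genes, Npnt, Kera, Lum, Aspn and Dcn rose by 0.78, 0.72, 0.69, 0.60 and 0.55, and the hyaluronan receptor gene Cd44 fell by 0.62. Lum turned to -0.51 within cluster 7 and did not pass (adjusted p = 0.442, edgeR). Of 15 matrix protease genes, Mmp16 and Adamts19 rose by 1.25 and 0.73, and Adamts19 did not pass within cluster 7 (adjusted p = 0.248, edgeR).

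In the smaller lists that follow, calls are to be read against 3.52% of all genes called higher and 4.69% lower. None of 5 chemokine genes was called. Of 12 retinoic acid genes Aldh1a2, which makes retinoic acid, fell, from 26 and 101 UMIs to 6 and 5. Of 13 hypoxia and glycolysis genes Ldha fell by 0.66. Of 6 metallothionein and zinc transporter genes, Mt1 and Mt2 fell and no zinc transporter was called. Among 19 immediate early and heat shock genes, which can respond to tissue dissociation, Socs3, Ier3, Btg2 and Junb rose by 1.18, 0.88, 0.75 and 0.70 (Junb without passing in cluster 7, adjusted p = 0.0900), and Hspa1a and Hspa1b were called lower at -1.96 and -2.04. Both heat shock genes were highest in the first control: Hspa1a had 92.7 CPM there, 18.5 CPM in the second control and 22.5 and 5.44 CPM in DTA+, and Hspa1b had 66.99, 10.6, 14.9 and 3.52 CPM. The groups overlapped for both, and neither passed within cluster 7 (adjusted p = 0.0535 and 0.0658, edgeR). Fos was lowest in that library, at 1183.2 CPM, against 3211.2 CPM in the second control and 4285.8 and 3206.3 CPM in DTA+. The part of these genes in other differences was not tested.

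Markers of other cell types moved with the genotype inside the group, where 3.52% of all genes were called higher and 4.69% lower. All 5 tested erythroid genes were lower in DTA+, and hemoglobin took 0.418% and 0.443% of member UMIs in controls and 0.155% and 0.0583% in DTA+. Of 6 erythroid genes Hbb-bs was the most abundant, and their summed level was 4179.7 and 4434.6 CPM against 1555.0 and 584.7 CPM. The 5 mast cell genes summed to 14.96, 128.9, 17.8 and 11.1 CPM, high only in the second control, where 2 of 1108 members fell into the mast cell cluster. Cpa3, Cma1 and Tpsb2 were called lower, and of these Cpa3 and Cma1 were tested within cluster 7 and did not pass (adjusted p = 0.638 and 0.325, edgeR). The 6 endothelial genes summed to 5.04 and 7.32 CPM in controls and to 18.6 and 24.1 CPM in DTA+, with Pecam1 the most abundant and 3 of 5 called higher. Among 6 pericyte genes Rgs5, Kcnj8 and Pdgfrb were called higher, and the sum, mostly Pdgfrb, was 139.0 and 144.2 against 204.2 and 215.3 CPM. Within cluster 7 Pdgfrb did not pass (0.49, adjusted p = 0.0517, edgeR). Myocd, which drives smooth muscle genes, fell from 55 and 73 UMIs to 8 and 1. Of 5 tested epithelial genes Krt15 was called higher, though not within cluster 7 (adjusted p = 0.117, edgeR), and 1 of 2 skeletal muscle genes, Myh3, lower. Without members that had 3 markers of such a class, 907 genes were called, 888 of them among the 984.

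Of the marker lists for regions of the penis, that of the distal glans had 4 called rises of 8 genes in DTA+ members, beside 3.52% of all genes. All 8 had positive log2 fold changes, with a median of 1.04. Members with at least 3 of the 8 genes detected were 23.7% and 13.1% in controls and 22.8% and 33.0% in DTA+, with overlap. In other mesenchyme these shares were 39.1% and 21.3% against 24.3% and 41.5%. Both sets of cells were lowest in the second control and highest in the second DTA+ sample. The called genes were Tac1, with 182.4 and 145.9 CPM in controls and 284.1 and 373.8 CPM in DTA+ (1.00 ± 0.156, adjusted p = 0.00105, edgeR), Inhba and Wnt5a, given above, and the homeobox gene Dlx5 (1.35 ± 0.400, adjusted p = 0.0447, edgeR). Dlx5 was low, with 5.002 and 2.09 CPM in controls and 6.72 and 11.52 CPM in DTA+, and its call was kept in 2 of the 4 fits that left out a sample, as was that of Wnt5a, whereas Tac1 and Inhba kept theirs in all 4. Within cluster 7, 4 of 6 tested genes were called higher, Tac1, Inhba, Wnt5a and Tfap2c, with a median of 0.77. The homeobox genes Msx1 and Msx2 did not pass (0.33 and 0.78). Of the other regional lists, 2 of 8 genes of prepuce and dermis, 2 of 5 tendon-type genes and 1 of 4 genes of the subdermal prepuce and fascia were called higher, and 1 of the 4 fascial genes and 1 of 4 periurethral genes lower.

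To see where members responded unlike their surroundings, the genotype difference in members was tested against that in other mesenchyme of the same samples. Of 14712 genes, 172 (1.17%) differed, 85 toward higher and 87 toward lower values in members. With RLE size factors in place of TMM this split was 108 to 71. The count was 59 without the second control and 620 without the second DTA+ sample. Other mesenchyme alone had 146 called genes of 15249.

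Among genes of at least 20 CPM, large differences in each direction were as follows. Rgs2, a regulator of G protein signalling, rose in members from 14.9 and 19.9 to 44.1 and 35.3 CPM, while other mesenchyme had 43.8 and 49.1 and then 47.1 and 36.7 CPM. The difference of the log2 fold changes was 1.34 ± 0.152 (adjusted p = 0.00075, edgeR). Calcrl, the receptor of CGRP and adrenomedullin, had 25.2 and 29.99 against 59.3 and 31.7 CPM in members but 27.7 and 35.1 against 12.9 and 21.2 CPM in other mesenchyme (1.63 ± 0.320). Neat1 and the adhesion gene Lsamp had differences of 1.02 and 0.96. All 4 also passed with members of cluster 7 alone, a setting added after seeing the data. DESeq2 called Rgs2 but not Calcrl, Neat1 or Lsamp (adjusted p = 0.964, 0.0943 and 0.0930), and after thinning to 1000 UMIs Neat1 and Lsamp did not pass (adjusted p = 0.685 and 0.713, edgeR). The difference of Calcrl was 0.78 without the first DTA+ sample, and Lsamp did not pass without the second control (adjusted p = 0.231, edgeR).

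In the other direction, Fndc1 fell more in members than in other mesenchyme (-1.43 ± 0.177), as did Cenpm (-1.07 ± 0.211) and Fam171b (-1.005 ± 0.149). With members of cluster 7 alone, Fndc1 and Cenpm had differences of -1.28 and -1.41 that did not pass (adjusted p = 0.342 and 0.113, edgeR), and Fam171b passed (-1.22). DESeq2 did not call Cenpm or Fam171b (adjusted p = 0.138 and 0.0663), and neither passed after thinning (adjusted p = 0.527 and 0.391, edgeR). Cenpm also did not pass without the second control or without the first DTA+ sample (adjusted p = 0.0772 and 0.286, edgeR). Fam171b went from 39.5 and 50.9 to 20.3 and 24.2 CPM in members and had 27.3 and 34.0 against 28.5 and 31.9 CPM in other mesenchyme. Stc1, which encodes the secreted glycoprotein stanniocalcin, rose in both, but less in members, from 28.3 and 28.0 to 48.3 and 44.1 CPM against 12.7 and 17.4 to 52.7 and 51.4 CPM (-1.08 ± 0.164). This was -0.53 with members of cluster 7 alone and did not pass (adjusted p = 0.527, edgeR). Hbb-bt had a difference of -1.03, which was called in the opposite direction within cluster 7 (0.84, adjusted p = 0.00266, edgeR) and did not pass after thinning (-0.58, adjusted p = 0.138, edgeR). Of the genes described above by list, Id1, Id3, Tgfb2, Igfbp7, Slit2, Epha4, Jag1, Six2, Junb, Ier3, Btg2 and Socs3 also differed toward a larger rise in members, at adjusted p-values under 0.05. Gdf10, Dkk2, Fjx1, Top2a, Birc5, Tyms and the other 3 hemoglobin genes differed toward lower values in members.

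Among genes that the study names for the ablated lineage or its surroundings, some were called in the group and others were near zero or did not pass. Myocd and Col6a6 fell, as given above, and Akap12 rose by 0.76 ± 0.228, from 23.9 and 45.6 to 60.5 and 56.97 CPM (adjusted p = 0.0480, edgeR). Akap12 was also higher in DTA+ in other mesenchyme, at 351.0 and 300.1 CPM against 124.1 and 233.2 CPM in controls, before TMM scaling. DESeq2 did not call Akap12 (adjusted p = 0.0959), and it was not tested within cluster 7. Nr5a1 had no UMI in members, Scube2 had 15 UMIs over the 4 samples and Dner 26, too few to be tested. Nrg1, a ligand gene that the study found enriched in the lineage, was not called. It had 16 and 16 UMIs in control members and 17 and 11 in DTA+ members. Grem1, a BMP antagonist, had 7.50 and 10.6 CPM in controls and 18.1 and 7.36 CPM in DTA+ (0.50 ± 0.332, adjusted p = 0.390, edgeR). Ccn1, a matricellular gene, had 112.0 and 86.1 against 91.8 and 90.3 CPM (-0.12, adjusted p = 0.694, edgeR). The integrin gene Itga4 had 6.97 and 10.5 against 14.9 and 16.3 CPM (0.84 ± 0.261), with an adjusted p of 0.0563 by edgeR, and Timp1 had a value of -0.51 (adjusted p = 0.312, edgeR).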

How the data were processed

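Single-cell RNA from 4 samples of E16.5 mouse penis was sequenced by the study on the 10x 3' platform. The authors deposited unnormalized UMI counts for each barcode, made with Cell Ranger (version 4.0.0 per the file headers and labels) against mm10. Libraries held 50779551 to 73577028 UMIs.

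Cells were kept by the limits given in the report. Scrublet called at most 1 cell per library, so doublets were not removed, and leaving out the highest scores was an alternative. Members' counts were summed per sample and tested with edgeR 4.0.16 (quasi-likelihood, TMM, low-count filter, Benjamini-Hochberg at 0.05) in R 4.3.3, and DESeq2 1.42.0 was an alternative. Standard errors are the log2 fold change over the root of F. The comparison with other mesenchyme used the same test with a term for each sample, which pairs the 2 sums of a sample, a class term and a class-by-genotype term. Its replicate block adds a class-by-replicate term. Clusters came from scanpy 1.11.5 (2000 variable genes, 30 components, 15 neighbours, resolution 1.0). In simulated data with 200 changed genes, the member fit recovered 65% at a log2 change of 1 and 92% at 2. Named genes are the 12 largest rises and 12 largest falls among called genes of at least 20 CPM without overlap, and the 5 largest interactions in each direction, of which some results are not reported here. The members, lists and tests were chosen with earlier results of these data known. With 2 samples per genotype, p-values measure the spread between these samples. Counting intervals and floors cover counting error only.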

Additional observations from a re-analysis of the deposited data

Results flagged for a closer look

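The following genes had a genotype difference in the Coch/Meox2/Wif1 mesenchyme that differed from that in other mesenchyme of the same samples, by the interaction term of edgeR's quasi-likelihood fit. The values are differences of log2 fold changes. They were 1.63 for Calcrl, 1.34 for Rgs2, 1.02 for Neat1 and 0.96 for Lsamp. In the other direction they were -1.43 for Fndc1, -1.08 for Stc1, -1.07 for Cenpm, -1.03 for Hbb-bt and -1.005 for Fam171b. With members of cluster 7 alone, that of Hbb-bt was called in the opposite direction (0.84, adjusted p = 0.00266, edgeR). Outside the main measurement, the reporter tdTomato had 3579 UMIs over all barcodes of the first DTA+ library and 3140 in the second, against 0 in both controls.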

How the results depend on the processing

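The 984 genes called between the genotypes became 503 with DESeq2, 488 with an upper limit of 7500 UMIs, 408 with at least 2 markers, 273 after thinning cells to 1000 UMIs, 476 without cycling cells, and 436 to 2056 when a sample was left out. The same-numbered samples of the 2 genotypes did not deviate together (correlation -0.137), so the numbers were not taken as pairs. With a replicate block the count was 652, and with the crossed pairing, added after seeing the data, 1854. The 172 interactions became 36 with DESeq2, 423 with the likelihood ratio test, 514 without a filter on low counts, 512 with the replicate block, 396 with at least 4 markers, 51 after thinning, 325 for members of cluster 7 (added after seeing the data), and 59 to 620 without single samples. The difference in share, -4.27 points, became 0.190 and -0.849 after thinning to 1000 and 2000 UMIs, -6.02 and -1.82 with at least 2 and 4 markers, and -0.116 for cells of cluster 7. It was -1.96, -2.97 and -1.86 for the rule without Meox2, Wif1 and Shox2, and ranged from -5.53 to -3.02 without single samples. After thinning to 2000 UMIs it was -1.16, 0.480, -0.174, -0.523, -0.904, -0.712, -0.618 and 0.232 for the rule without Coch, Meox2, Wif1, Shisal1, Col19a1, Dchs2, Cpxm2 and Shox2. Of the 8 rule markers, 3 to 6 were called without single samples, against 4 with all.

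Among single genes, signs turned for Dchs2, Shox2, Grem1 and Ccn1, which had not passed, and for the interaction of Hbb-bt, which had. Of 816 called genes tested in cluster 7, 808 kept their sign there, and Lum, called at 0.69, turned to -0.51. Without single samples, Dchs2 ranged from -0.0326 to 0.772, Shox2 from -0.267 to 0.188, Grem1 from -0.304 to 0.993 and Ccn1 from -0.311 to 0.0790. Shox2 also had 0.00624 with the limit of 7500 UMIs, 0.163 after thinning and 0.0357 without the highest doublet scores. The interaction of Hbb-bt turned from -1.03 to 0.84 in cluster 7. The causes were not tested. For single genes named in the genotype comparison, 525 values under alternatives kept their direction and side of the threshold, 26 lost the call and 4 gained it. For the interactions of single genes, 130 values kept both and 19 lost the call, 5 of them with DESeq2 and 6 after thinning to 1000 UMIs. Depth limits genes with few UMIs, such as Mt2 and Esr1.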
